A study of Mus musculus with 6 samples.

Results

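The p53 pathway was examined through 10 genes in mouse liver: Trp53, which encodes p53, its antagonist Mdm2, and the p53 targets Cdkn1a (p21), Rnf144b, Ccng1, Phlda3, Zmat3, Trp53inp1, Gadd45a and Sesn2. All 10 were found by gene symbol among the 22599 genes of the deposited tables, and all 10 passed the filter on low counts that left 13205 genes for testing. The group was chosen because Cdkn1a and Rnf144b were lower in the NcoR1 libraries, so the values of those 2 genes are given as a description, without a test. The other 8 genes belong to it by their known place in the pathway, and they were tested. Bulk RNA sequencing was done on 3 liver libraries from NcoR1ΔHep mice, in which hepatocytes lack the nuclear receptor corepressor NcoR1 (genotype label: NcoR1 knockdown), and on 3 from NcoR1fl/fl mice, called flox here (genotype label: WT). The titles place all 6 libraries at 0 h of ischemia-reperfusion, the treatment label of all 6 names that procedure, and all mice ate chow. Whether the 0 h livers were operated on is not stated, and the labels give no age, sex, strain or driver of the hepatocyte deletion. Nor do they tie a library to an animal, so the p-values below measure library-to-library spread, in which technical and animal-to-animal parts cannot be told apart.

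p53 is a transcription factor that is kept low by MDM2, an E3 ubiquitin ligase that p53 itself induces, and that accumulates after DNA damage and other stress. Its best known target, p21, inhibits cyclin-dependent kinases and so keeps the retinoblastoma family and the DREAM complex in their repressive state at cell cycle genes. In the liver, p21 restrains hepatocyte division after injury or resection, and several p53 targets, Gadd45a, Sesn2 and Cdkn1a among them, are also induced by other stress pathways.

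The libraries held 36975231 to 38470468 counts each, of which Alb, the hepatocyte product albumin, made up 6.56% to 8.85%. Ncor1 itself had 5.34, 6.63 and 4.93 FPKM in the NcoR1ΔHep libraries and 6.78, 6.70 and 7.72 FPKM in the flox libraries (FPKM, counts scaled by gene length and by the library's total). All 3 NcoR1ΔHep values lay below the flox values, but the highest of them nearly met the lowest flox value, and the difference did not pass the threshold (log2 fold change -0.31, SE 0.21, edgeR's quasi-likelihood test with Benjamini-Hochberg adjusted p = 0.931). The gene's whole-transcript level does not show which exons remained. NcoR1ΔHep library 1 stood apart by sex-linked transcripts: Xist had 17138 counts there and 6 to 18 in the other 5 libraries, and 4 Y-linked genes together had 0.534 CPM there (counts scaled to the library's total) and 113 to 271 CPM elsewhere. Flox library 1 held the highest level of each of 10 sinusoidal endothelial markers. The clock gene Arntl was high in flox libraries 1 and 2 and low in the other 4.

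Promoter sequence is shown first for the gene with the lowest ratio, Cdkn1a, because its p53 element is the best known of the group. RefSeq places starts of Cdkn1a at positions 2790 bases apart (build GRCm38.p6, plus strand). The window of the upstream start, chr17:29090729-29091028, runs from 250 bases before to 50 bases after it, and capitals mark the stretches that match the p53 half-site, the 10-base unit of which a p53 binding element holds a pair.

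Cdkn1a upstream promoter: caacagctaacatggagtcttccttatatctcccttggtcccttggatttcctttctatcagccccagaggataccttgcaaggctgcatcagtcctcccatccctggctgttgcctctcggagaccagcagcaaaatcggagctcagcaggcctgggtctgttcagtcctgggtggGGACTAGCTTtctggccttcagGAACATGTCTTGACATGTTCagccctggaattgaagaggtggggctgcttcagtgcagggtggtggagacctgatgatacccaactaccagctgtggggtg

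The window held the pair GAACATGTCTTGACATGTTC at chr17:29090928-29090947, 51 to 32 bases before the start, with no spacer, the first unit matching exactly and the second with 1 mismatch. A further exact unit, GGACTAGCTT, ended 12 bases short of that pair, so the first unit of the pair counted in both combinations. The window of the downstream Cdkn1a start, chr17:29093519-29093818, held no match to the element even with 1 mismatch allowed. The Ccng1 window, chr11:40755237-40755536 on the minus strand, held the only other pair among the windows of these genes, marked in capitals.

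Ccng1 promoter: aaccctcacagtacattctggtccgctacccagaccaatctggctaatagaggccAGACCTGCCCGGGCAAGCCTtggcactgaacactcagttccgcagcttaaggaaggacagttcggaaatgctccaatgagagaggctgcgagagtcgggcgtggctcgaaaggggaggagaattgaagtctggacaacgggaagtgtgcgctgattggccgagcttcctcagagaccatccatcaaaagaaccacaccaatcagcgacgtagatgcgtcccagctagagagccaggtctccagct

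Its first unit, AGACCTGCCC, carried 1 mismatch and its second, GGGCAAGCCT, matched exactly. Single exact units were found in Mdm2 (GAACTTGCCT, 186 bases before the start), Trp53 (GGACTTGCCC, 75 bases before) and Gadd45a (GGGCTAGCCC, 40 bases before). Rnf144b, the second gene picked for its low level, has RefSeq starts 71283 bases apart on chromosome 13, and its windows held no match even with 1 mismatch allowed. The first of them, chr13:47122470-47122769 on the plus strand, is shown for contrast with Cdkn1a.

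Rnf144b upstream promoter: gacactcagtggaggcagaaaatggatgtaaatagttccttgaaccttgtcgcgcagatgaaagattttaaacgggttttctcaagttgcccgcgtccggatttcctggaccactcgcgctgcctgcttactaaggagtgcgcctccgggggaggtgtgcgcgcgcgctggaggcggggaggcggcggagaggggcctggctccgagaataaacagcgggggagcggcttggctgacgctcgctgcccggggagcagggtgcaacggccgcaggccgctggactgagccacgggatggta

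Phlda3 and Sesn2 likewise had no match in their windows, and Zmat3 and Trp53inp1 were not searched. In all, 5 of the 10 windows, from 5 of the 8 genes searched, held an exact unit, against 8.36% of the 32851 promoter windows of the annotation, and 2 held a pair, against 0.627%. With 1 mismatch allowed the count stayed at 5 of 10 windows while 50.9% of all windows matched. The genes were chosen as known p53 targets, so these shares are a description, and the absence of a match says only that these letters are not in the window. The element was searched in both orientations, which are equivalent because it is its own reverse complement.

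Cdkn1a had the lowest ratio of the group. It had 0.970, 1.37 and 0.908 FPKM in the NcoR1ΔHep libraries, against 7.61, 4.46 and 2.15 FPKM in the flox libraries. The NcoR1ΔHep libraries were all low and close together, while the flox libraries were spread out, with flox 1 highest and flox 3 nearest to the NcoR1ΔHep level. The groups did not overlap. The highest and lowest libraries differed 1.51-fold within NcoR1ΔHep and 3.53-fold within flox. The log2 fold change was -2.08 (SE 0.43), a level 4.22-fold lower, and moved to -1.67 without flox 1 and to -2.42 without flox 3. On the log2(FPKM + 1) scale in limma it was -1.35, since a pseudocount of that size understates the change of a gene at this level. The values rested on 74, 104 and 69 counts in NcoR1ΔHep libraries and on 588, 349 and 162 counts in flox libraries. AC167363.2, an unconfirmed transcript on the opposite strand that is not among the counted genes, shares 273 exon bases with Cdkn1a in the GENCODE annotation. In bulk tissue, fewer cells of a type and less RNA per cell cannot be told apart, for this gene or for the others.

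Rnf144b encodes an E3 ubiquitin ligase of the RING-between-RING family that p53 induces. It had 6.63, 6.73 and 4.07 FPKM in the NcoR1ΔHep libraries, against 13.4, 12.2 and 9.19 FPKM in the flox libraries. The groups did not overlap, and NcoR1ΔHep 3 and flox 3 were the lowest of their groups. The NcoR1ΔHep mean was 5.81 ± 1.51 FPKM against a flox mean of 11.6 ± 2.18 FPKM (SD, n = 3 each), with a log2 fold change of -0.99 (SE 0.24) that ran from -1.13 to -0.85 when 1 library at a time was left out. Both genes just described were picked for these values. Lower values in every NcoR1ΔHep library than in any flox library were found for 654 of the 13205 tested genes (4.95%).

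**Figure D1:**
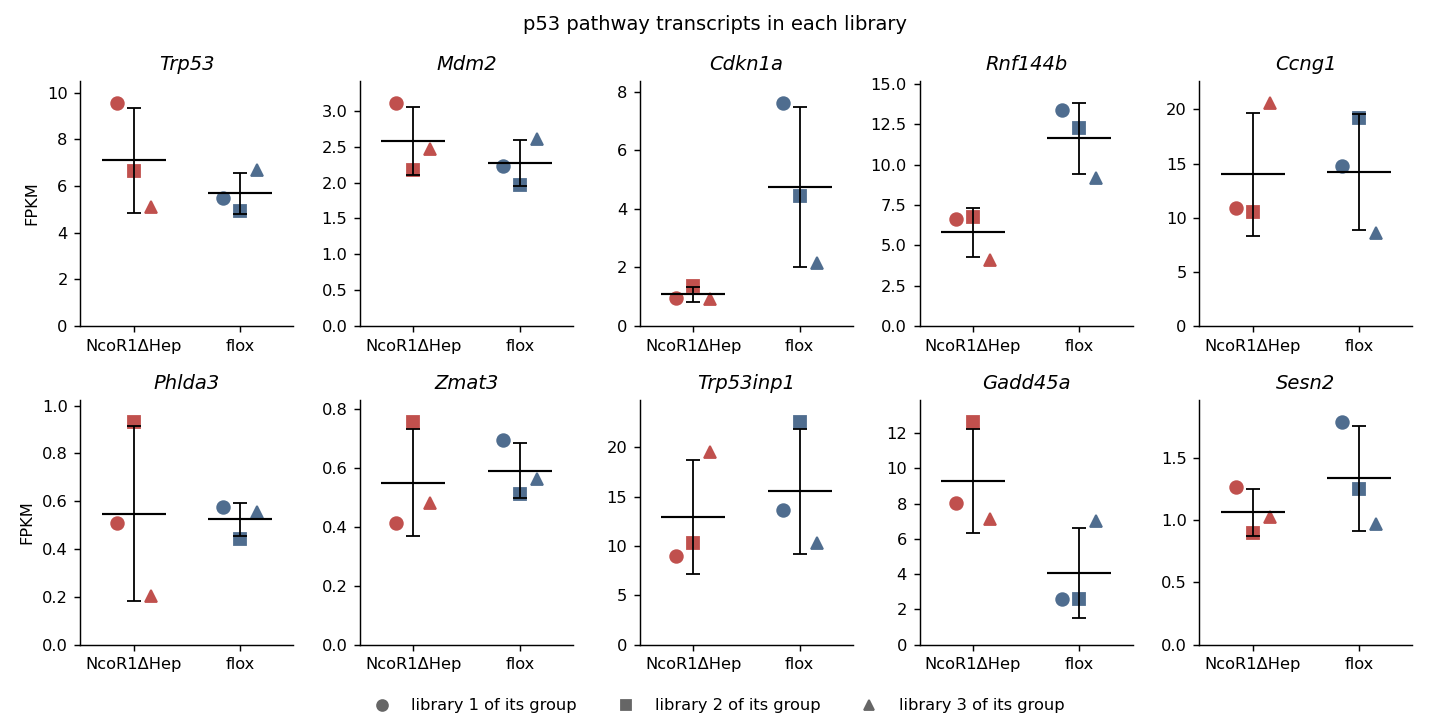
FPKM of each of the 10 genes (vertical axes, each from 0) in the 3 NcoR1ΔHep libraries (red, left) and the 3 flox libraries (blue, right), with marker shapes for library number and black bars for mean and SD. Cdkn1a and Rnf144b separate the groups downward and Gadd45a upward, by 7.14 against 7.004 FPKM for its nearest libraries, while the other 7 overlap.

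The regulators at the head of the pathway overlapped between the genotypes. Trp53 had 9.55, 6.63 and 5.12 FPKM in the NcoR1ΔHep libraries, against 5.48, 4.95 and 6.67 FPKM in the flox libraries. The groups overlapped and the single high value was NcoR1ΔHep 1, the library that stood apart by sex-linked transcripts. The log2 fold change was 0.32 (SE 0.25, edgeR's quasi-likelihood test, adjusted p = 0.931), and 0.13 without that library. Mdm2, both a target and the main inhibitor of p53, had 3.11, 2.17 and 2.47 FPKM in the NcoR1ΔHep libraries, against 2.23, 1.97 and 2.61 FPKM in the flox libraries. These ranges overlapped (log2 fold change 0.20, 95% confidence interval -0.30 to 0.70, adjusted p = 0.931 in the same edgeR fit). Mdm2 varied least of the 10 genes within a genotype.

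Ccng1, a cyclin that recruits a phosphatase to MDM2, and Trp53inp1, a stress protein that links p53 to autophagy and cell death, had the highest levels of the group and peaked in the same libraries. Ccng1 had 10.9, 10.5 and 20.6 FPKM in the NcoR1ΔHep libraries, against 14.7, 19.2 and 8.61 FPKM in the flox libraries. Trp53inp1 had 8.97, 10.3 and 19.5 FPKM in the NcoR1ΔHep libraries, against 13.7, 22.6 and 10.4 FPKM in the flox libraries. Both were highest in NcoR1ΔHep 3 and flox 2, 1 library of each genotype, and the groups overlapped. Over all tested genes, the deviations of those 2 libraries from their group means correlated at 0.56. A joint peak there was thus not particular to these 2 genes. The log2 fold changes were 0.03 (SE 0.41, adjusted p = 0.993) for Ccng1 and -0.22 (SE 0.44, adjusted p = 0.958) for Trp53inp1 in the edgeR fit. Leaving out NcoR1ΔHep 3 gave -0.47 and -0.77 for these genes, and leaving out flox 2 gave 0.39 and 0.23. Ccng1 was also negative without flox 1 (-0.0055) or flox 3 (-0.23), and Trp53inp1 positive without NcoR1ΔHep 1 (0.042). The sign of each gene thus turned when any of several single libraries was left out.

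Gadd45a, a small protein that binds PCNA and p21 and acts in DNA repair and growth arrest, had a fold change of the opposite sign to Cdkn1a. It had 8.001, 12.6 and 7.14 FPKM in the NcoR1ΔHep libraries, against 2.60, 2.59 and 7.004 FPKM in the flox libraries. The NcoR1ΔHep libraries were all above the flox libraries, but only narrowly, with 326 counts in NcoR1ΔHep 3 and 317 counts in flox 3. The log2 fold change was 1.19 (SE 0.45, 95% confidence interval 0.16 to 2.22), with an unadjusted p of 0.0288 and an adjusted p of 0.931 in edgeR's quasi-likelihood test. Without flox 3 the log2 fold change was 1.86. Higher values in every NcoR1ΔHep library than in any flox library were found for 344 tested genes (2.61%), and 189 (1.43%) were higher with an unadjusted p under 0.05. E230016M11Rik, on the opposite strand, shares 337 exon bases with Gadd45a in the GENCODE annotation and had 50, 13 and 6 counts in the NcoR1ΔHep libraries and 13, 2 and 15 counts in the flox libraries. The strand setting of the counting is not given, so reads in the shared part cannot be told apart. Gadd45a had many more counts, 367, 577 and 326 in the NcoR1ΔHep libraries and 121, 122 and 317 in the flox libraries.

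Sesn2, a sestrin that lowers mTORC1 activity in stress, had 1.27, 0.897 and 1.03 FPKM in the NcoR1ΔHep libraries, against 1.79, 1.25 and 0.967 FPKM in the flox libraries. Only flox 1 lay clearly above the rest. Its log2 fold change was -0.30 (SE 0.31, edgeR adjusted p = 0.931), and -0.11 without flox 1. Phlda3, which competes with AKT for membrane lipids, had 28, 51 and 11 counts in the NcoR1ΔHep libraries, against 32, 25 and 30 counts in the flox libraries. The NcoR1ΔHep libraries held both its highest and its lowest value, 0.932 and 0.201 FPKM, and the flox libraries lay between, at 0.443 to 0.574 FPKM. Zmat3, an RNA-binding zinc finger protein, had 0.411, 0.756 and 0.482 FPKM in the NcoR1ΔHep libraries, against 0.694, 0.512 and 0.563 FPKM in the flox libraries. Its groups overlapped, with the extremes again both in NcoR1ΔHep. The log2 fold changes of Phlda3 and Zmat3 were 0.06 (SE 0.55, adjusted p = 0.992) and -0.07 (SE 0.31, adjusted p = 0.986) in the edgeR fit.

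None of the 8 tested genes passed the threshold of 0.05 in edgeR's quasi-likelihood test, in which 0 of 13205 genes passed (0%). At an unadjusted p under 0.05 there was 1 of 8, Gadd45a, against 3.35% of all tested genes. DESeq2 called 0 of the 8 and 5 genes in all (0.0246% of 20289), and these included Cdkn1a, for which nothing is read from the call because the gene was picked on the same values. Of the 8 genes, 5 had a log2 fold change above 0, where 53.5% of all tested genes did, and their median was 0.05 against 0.03 over all tested genes. The intervals were wide: for Ccng1 the 95% confidence interval ran from -0.92 to 0.98 on the log2 scale, and for Phlda3 from -1.20 to 1.33, so differences of up to about those sizes lay within the error.

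**Figure D2:**
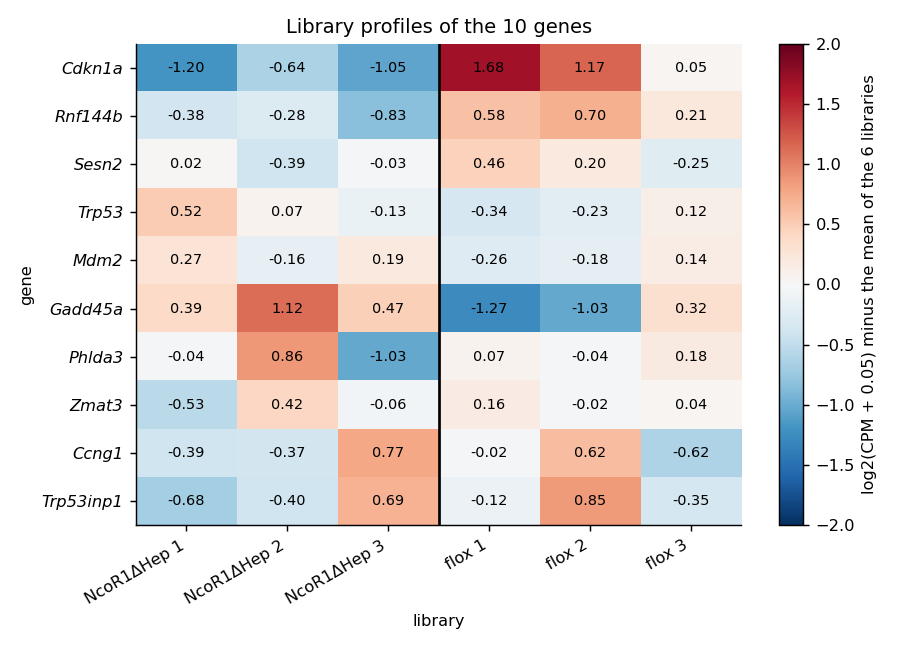
Level of each gene (rows) in each library (columns, NcoR1ΔHep left of the line and flox right), as log2(CPM + 0.05) minus the mean of the 6 libraries, printed in each cell and coloured from blue (low) to red (high). Cdkn1a runs from -1.20 in NcoR1ΔHep 1 to 1.68 in flox 1, Gadd45a has the opposite signs in flox 1 and flox 2, and Ccng1 and Trp53inp1 share high values in NcoR1ΔHep 3 and flox 2.

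The 10 genes had several different profiles over the 6 libraries. In FPKM, 3 of them (Cdkn1a, Rnf144b and Sesn2) had flox 1 above flox 2 above flox 3, an order shown by 20.4% of all tested genes. Gadd45a was lowest where Cdkn1a was highest, at -1.27 in flox 1 and -1.03 in flox 2 on the centred log2 scale, where Cdkn1a had 1.68 and 1.17. By root mean square difference of centred log2 CPM over the 6 libraries, the 5 genes closest to Cdkn1a were Ago2 (0.16), Denn2b (0.34), Bub1 (0.36), Grk5 (0.39) and Bmp10 (0.39). Ago2, the slicer of RNA interference, had 0.163, 0.224 and 0.194 FPKM in the NcoR1ΔHep libraries, against 1.21, 0.744 and 0.431 FPKM in the flox libraries. Its flox libraries had the order of those of Cdkn1a, which follows from choosing the gene for closeness over the same libraries. Rnf144b ranked 77 by this distance (0.62), and Gadd45a ranked 13006 (1.89). Cdkn1a and Rnf144b were both picked for being lower, so their closeness follows in part from that choice. Seen from Rnf144b, Cdkn1a ranked 5345 at the same distance. The 5 genes closest to Rnf144b were Lag3 (0.14), Rap1gap2 (0.15), Nup62 (0.16), Gm41756 (0.17) and Ticam2 (0.18). All but Nup62, a nuclear pore protein gene with 137 to 478 counts, had at most 36 counts in any library. A pseudocount of 0.5 CPM in place of 0.05, compared after seeing the data, kept 3 of the 5 genes for Cdkn1a and 2 of the 5 for Rnf144b. Those lost for Cdkn1a were Bub1 and Bmp10, which had at most 30 and 49 counts in any library.

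**Figure D3:**
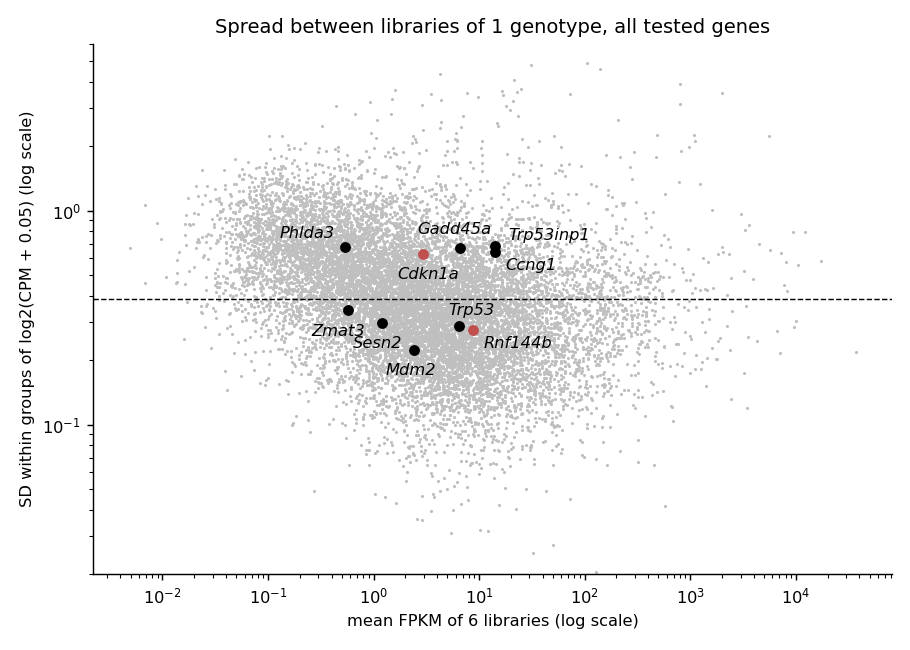
SD of log2(CPM + 0.05) within genotypes (vertical axis, log scale) against mean FPKM of the 6 libraries (horizontal axis, log scale) for the tested genes (grey), with the 10 genes in black or, for the 2 picked for being lower, red; the dashed line is the median of all tested genes. Phlda3, Cdkn1a, Gadd45a, Ccng1 and Trp53inp1 lie above the line at 0.63 to 0.68, and Mdm2 is lowest of the 10 at 0.22.

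Within a genotype, 5 of the 10 genes varied more than the median tested gene and 5 varied less. The SD of log2 CPM was 0.68 for Trp53inp1, 0.67 for Phlda3 and Gadd45a, 0.64 for Ccng1 and 0.63 for Cdkn1a, above the median of 0.38 over all tested genes. It was 0.34 for Zmat3, 0.30 for Sesn2, 0.29 for Trp53, 0.28 for Rnf144b and 0.22 for Mdm2, below that median. For Trp53inp1, 82.2% of tested genes had a smaller SD, and for Mdm2, 19.7%. Phlda3 had the lowest mean FPKM of the 10 genes, with 11 to 51 counts a library and more FPKM than 21.8% of tested genes, whereas Ccng1 and Trp53inp1 had more FPKM than 80.0% and 80.2% of tested genes. In order of mean FPKM over the 6 libraries, Trp53inp1 and Ccng1 led, followed by Rnf144b, Gadd45a and Trp53, then Cdkn1a, Mdm2 and Sesn2, with Zmat3 and Phlda3 last. Neighbours in that order overlapped between libraries, except that Mdm2 lay above Sesn2 and Sesn2 above Zmat3 in all 6 libraries.

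Paralogues of the 10 genes were set beside them. Of 17 listed, 14 were tested and 0 passed the edgeR threshold. Those lower at an unadjusted p under 0.05 numbered 3, against 1.92% of all tested genes. Sesn3, a FOXO-induced sestrin, had 0.532, 1.44 and 1.09 FPKM in the NcoR1ΔHep libraries, against 4.69, 3.14 and 0.902 FPKM in the flox libraries (log2 fold change -1.44, SE 0.60). Ccng2, a cyclin also induced by FOXO factors, had 5.23, 5.36 and 3.18 FPKM in the NcoR1ΔHep libraries, against 13.04, 9.12 and 4.42 FPKM in the flox libraries (log2 fold change -0.92, SE 0.36). Rnf144a had 0.432, 0.286 and 0.485 FPKM in the NcoR1ΔHep libraries, against 1.93, 1.12 and 0.284 FPKM in the flox libraries (log2 fold change -1.40, SE 0.59). All 3 were high in flox 1 and flox 2 and, in flox 3, within the NcoR1ΔHep range or, for Rnf144a, just under it, so the groups overlapped. Sesn1, like Sesn2 a sestrin that p53 induces, had 3.52, 3.03 and 2.53 FPKM in the NcoR1ΔHep libraries, against 3.59, 3.03 and 2.42 FPKM in the flox libraries, a log2 fold change of 0.02.

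**Figure D4:**
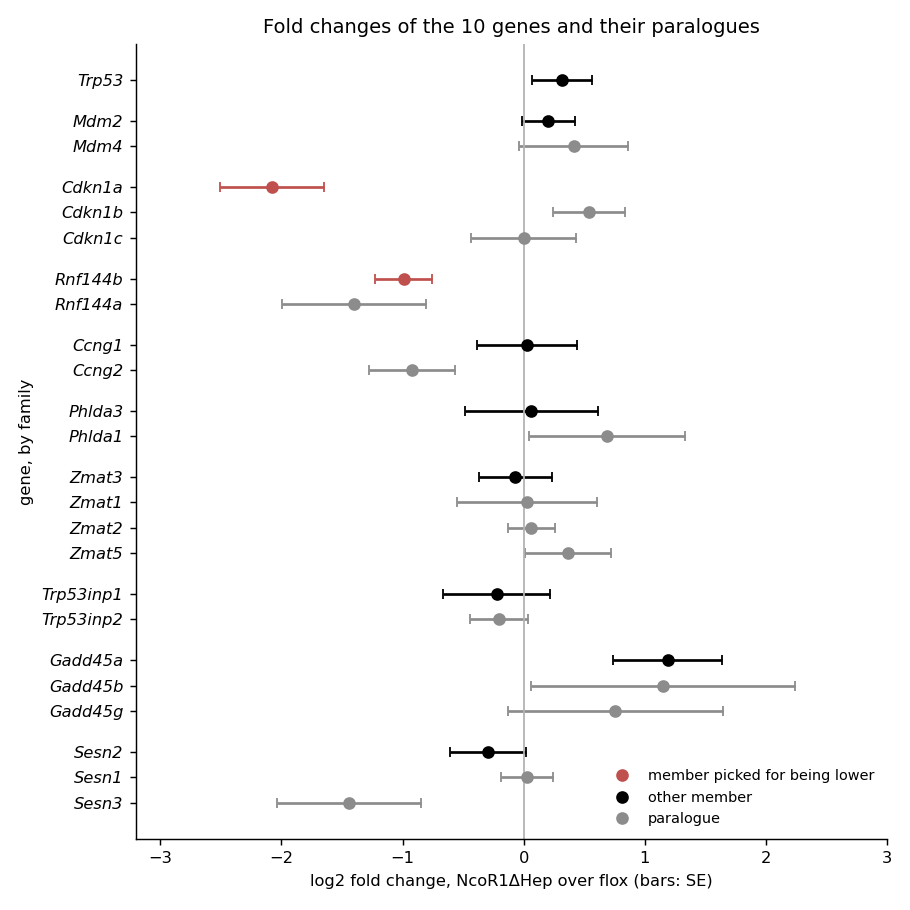
Log2 fold change of NcoR1ΔHep over flox (horizontal axis, points) with its SE (bars) for the 10 genes (red if picked for being lower, black otherwise) and their tested paralogues (grey), grouped by family. Rnf144a, Ccng2 and Sesn3 lie below 0 at -1.40, -0.92 and -1.44, and the Gadd45 family lies above 0 at 1.19, 1.15 and 0.76.

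The other Gadd45 genes had fold changes of the sign of Gadd45a with larger errors. Gadd45b had 7.63, 2.84 and 0.190 FPKM in the NcoR1ΔHep libraries, against 1.06, 0.308 and 3.25 FPKM in the flox libraries. Gadd45g had 39.8, 94.4 and 12.3 FPKM in the NcoR1ΔHep libraries, against 24.0, 4.35 and 58.1 FPKM in the flox libraries. Both overlapped widely, and the log2 fold change of Gadd45b (1.15, SE 1.09) was 0.0082 without NcoR1ΔHep 1 and 2.38 without flox 3, while that of Gadd45g (0.76, SE 0.89) was -0.17 without NcoR1ΔHep 2 and 1.87 without flox 3. Of the other CDK inhibitors in the p21 family, Cdkn1b (p27) had 10.9, 12.2 and 16.0 FPKM in the NcoR1ΔHep libraries, against 8.32, 11.5 and 7.55 FPKM in the flox libraries. Its log2 fold change was 0.54 (SE 0.30) and the groups overlapped. Cdkn1c (p57) had a log2 fold change of 0.00079 (SE 0.43). Mdm4, the MDM2 partner that masks p53's activation domain, had 8.39 FPKM in NcoR1ΔHep 1, 2.28 and 2.35 in the other NcoR1ΔHep libraries, and 3.46, 2.79 and 3.41 FPKM in the flox libraries. Its log2 fold change of 0.41 (SE 0.45) was -0.37 without NcoR1ΔHep 1. The remaining paralogues, Phlda1, Zmat1, Zmat2, Zmat5 and Trp53inp2, had log2 fold changes of -0.21 to 0.69, and Trp63, Trp73 and Phlda2 were too low to test.

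Direct p53 targets outside the group gave no common direction. Of 38 listed, 35 were tested, 0 passed the edgeR threshold and 0 had an unadjusted p under 0.05, with 19 higher and 16 lower. Their log2 fold changes had a median of 0.02, beside 0.03 for all tested genes. Ei24 was lower without overlap, 1 of the 35, against 4.95% of all tested genes. The 3 with the smallest p were Epha2, a receptor tyrosine kinase (log2 fold change -0.61, SE 0.33), Sertad1, a CDK4 regulator (0.73, SE 0.39), and Rps27l, a ribosomal protein paralogue (0.49, SE 0.28). Rps27l had 114, 67.6 and 55.0 FPKM in the NcoR1ΔHep libraries, against 52.2, 50.5 and 64.3 FPKM in the flox libraries, so NcoR1ΔHep 1 again held the highest value, as for Trp53 and Mdm2. Without that library its log2 fold change was 0.22.

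The genes that act on p53 were evenly split. Of 22 regulators and cofactors listed, 20 were tested, with 10 higher and 10 lower around a median log2 fold change of 0.0048, and 0 passed the edgeR threshold or an unadjusted p of 0.05. Without overlap, 2 of the 20 were higher and 1 was lower, against 2.61% and 4.95% of all tested genes. Hipk2, a kinase that phosphorylates p53, had 2.13, 1.77 and 2.20 FPKM in the NcoR1ΔHep libraries, against 3.96, 3.14 and 2.12 FPKM in the flox libraries (log2 fold change -0.56, SE 0.26). It showed the same flox order as Cdkn1a, as 2 of the 20 genes did, against 20.4% of all tested genes. Flox 3 overlapped with NcoR1ΔHep. The acetyltransferases Crebbp and Kat5, which act on p53, differed by 0.34 (SE 0.21) and 0.32 (SE 0.21) on the log2 scale. Of 15 DNA damage sensors and kinases, 13 were tested, with 6 higher, 7 lower, a median of -0.03 and 0 past either threshold. Among these 13, 1 was lower without overlap, against 4.95% of all tested genes, and 0 were higher without overlap, against 2.61%. The smallest p-values there were those of Chek1 (log2 fold change 0.62, SE 0.44), Mdc1 (-0.42, SE 0.26) and Mre11a (-0.41, SE 0.26).

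**Figure D5:**
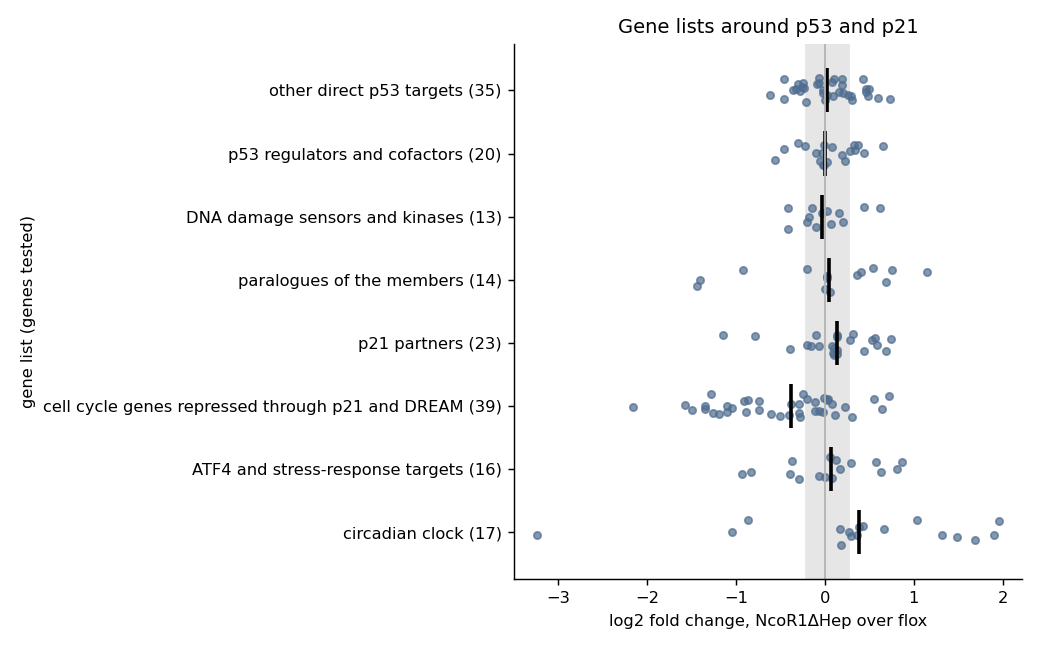
Log2 fold change of NcoR1ΔHep over flox (horizontal axis) for the tested genes (points) of 8 lists around p53 and p21 (rows, with the number of genes tested), with a black bar at each median and grey shading between the quartiles of all tested genes. The medians of most lists lie near 0, that of the cell cycle genes at -0.38 and that of the clock genes at 0.38.

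Downstream of p21, the cell cycle genes that DREAM represses had mostly negative fold changes, without a call for any single gene. Of 40 listed, 39 were tested, with 9 higher and 30 lower around a median log2 fold change of -0.38, and 0 passed the edgeR threshold. Those lower at an unadjusted p under 0.05 were Bub1 and Aurka, 2 of 39, against 1.92% of all tested genes. Bub1, a spindle checkpoint kinase, had 3, 9 and 2 counts in the NcoR1ΔHep libraries, against 30, 23 and 13 counts in the flox libraries (log2 fold change -2.16, SE 0.66, and -3.02 without NcoR1ΔHep 2). Aurka, the mitotic kinase Aurora A, had 0.166, 0.334 and 0.298 FPKM in the NcoR1ΔHep libraries, against 1.30, 0.532 and 0.325 FPKM in the flox libraries (log2 fold change -1.35, SE 0.58, and -0.71 without flox 1). Bub1 separated the groups, as the 1 gene of the 39 lower without overlap (4.95% of all tested genes were), and Aurka did not. Both had the flox order of Cdkn1a, as did 24 of the 39 genes, against 20.4% of all tested genes. Kif11, a spindle motor, followed with -1.10 (SE 0.49). The highest library was flox 1 for 27 of the 39 genes, where it was for 28.2% of all tested genes. The list's median was -0.14 without flox 1, -0.16 without NcoR1ΔHep 1 and -0.69 without flox 3. Summed endothelial, Kupffer cell, erythroid and hepatocyte markers, given below, were also highest in flox 1, and their part in these values was not tested.

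The partners of p21 themselves included more genes above 0 than below, as did all tested genes together (53.5% above 0). Of 23 cyclins, kinases, pocket proteins and DREAM subunits, all were tested, with 16 higher, 7 lower and a median of 0.13, and 0 passed the edgeR threshold. Ccnd1 (cyclin D1) was higher at an unadjusted p of 0.0482, with 25.6, 13.5 and 17.5 FPKM in the NcoR1ΔHep libraries, against 15.9, 7.92 and 12.3 FPKM in the flox libraries. The groups overlapped (log2 fold change 0.68, SE 0.29). This was 1 of the 23 genes, against 1.43% of all tested genes. E2f5, an E2F that can join DREAM, was the 1 gene higher without overlap, against 2.61% of all tested genes. It differed by 0.53 (SE 0.26) on the log2 scale, and Cdk1, the mitotic kinase, by -0.78 (SE 0.43).

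Other states of the libraries ran alongside Cdkn1a. Among clock genes, 14 of 17 tested were higher, against 53.5% of all tested genes, and the median was 0.38, with 0 past the edgeR threshold. Arntl, the gene of the clock activator BMAL1, had 0.0305, 0.109 and 0.0709 FPKM in the NcoR1ΔHep libraries, against 1.29, 0.702 and 0.0983 FPKM in the flox libraries. Dbp, an output gene of the clock, had 92.6, 41.9 and 37.6 FPKM in the NcoR1ΔHep libraries, against 0.948, 3.76 and 47.2 FPKM in the flox libraries. Flox 3 lay with the NcoR1ΔHep libraries for both clock genes, and it was also the flox library with the lowest Cdkn1a and the highest Gadd45a. Arntl was called by DESeq2 (adjusted p = 0.0317), and Nfil3 and Per3, further clock genes, had log2 fold changes of -1.05 (SE 0.47) and 1.96 (SE 1.02). Single libraries moved these values: that of Per3 was 1.0002 without NcoR1ΔHep 1 and 4.04 without flox 3, that of Dbp 1.68 with all libraries and 4.53 without flox 3, and that of Arntl -3.23 with all libraries and -2.57 without flox 1. The hours of tissue collection are not given, and the part of the clock in the values of Cdkn1a and Gadd45a was not tested. Targets of ATF4, which also acts on Sesn2 and Gadd45a, had 10 higher and 6 lower of 16 tested, a median of 0.07 and 0 past either threshold. Those with the smallest p were the transcription factor Atf5 (log2 fold change -0.39, SE 0.26), the mTORC1 inhibitor Ddit4 (0.81, SE 0.49) and the serine synthesis enzyme Psat1 (-0.93, SE 0.70, and -2.09 without NcoR1ΔHep 2).

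Markers of other liver cells varied between libraries too. Sinusoidal endothelial markers were lower for 10 of 10 genes, around a median of -0.69 on the log2 scale, where 53.5% of all tested genes were higher. Of the 10, 0 separated the groups. Stab2, the defining marker, had a log2 fold change of -0.78, and of -0.29 without flox 1. Summed levels were 91.9, 54.1 and 38.6 FPKM in the NcoR1ΔHep libraries, against 154, 58.6 and 87.6 FPKM in the flox libraries. Summed Kupffer cell and macrophage markers were 107, 180 and 70.8 FPKM in the NcoR1ΔHep libraries and 181, 116 and 176 FPKM in the flox libraries. Singly, 7 of these 8 genes were lower, around a median of -0.39. Cholangiocyte markers summed to 36.2, 102 and 22.1 FPKM in the NcoR1ΔHep libraries and to 25.7, 25.1 and 33.8 FPKM in the flox libraries, with the single high value in NcoR1ΔHep 2, where Gadd45a, Phlda3 and Zmat3 were also highest. Summed stellate cell and fibroblast markers ran from 124 to 135 FPKM in NcoR1ΔHep libraries and from 88.7 to 122 FPKM in flox libraries, narrowly without overlap. All 8 had a log2 fold change above 0, with a median of 0.09, but 0 of the 8 separated the groups singly. Neutrophil markers ran from 6.79 to 11.9 FPKM in NcoR1ΔHep libraries and from 3.46 to 22.3 FPKM in flox libraries, with the defining marker Ly6g at 0 counts in 5 libraries and 1 count in flox 3. Summed erythroid markers ran from 286 to 307 FPKM in NcoR1ΔHep libraries and from 334 to 479 FPKM in flox libraries, without overlap and highest in flox 1. Of the 5 erythroid genes, 2 had a log2 fold change above 0 and 3 below. Only 1 of the 5 was lower without overlap, against 4.95% of all tested genes. Lymphocyte markers ran from 3.84 to 7.95 FPKM in NcoR1ΔHep libraries and from 5.04 to 6.62 FPKM in flox libraries. Flox 1 held the highest Cdkn1a and the highest summed endothelial, Kupffer cell, erythroid and hepatocyte markers. The hepatocyte sum was 55768 FPKM there and 48261 to 53776 FPKM elsewhere. Singly, 10 of 10 endothelial, 5 of 8 Kupffer cell, 3 of 5 erythroid and 1 of 6 hepatocyte genes were highest in flox 1. The share over all tested genes was 28.2%. The part of these cells in the values of the 10 genes was not tested.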

How the data were processed

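Bulk RNA sequencing of 6 mouse liver libraries was analysed, 3 NcoR1ΔHep and 3 flox. The authors deposited raw read counts per gene symbol and an FPKM table of the same genes. The deposited FPKM values equalled counts divided by 1 length per gene and the library's total, within 1% in 100% of 11237 genes checked. RNA came from a Qiagen column kit and libraries from a SMARTer kit, per the labels' protocols. The builds GRCm38, mm10 and hg38 are named without a role in the submitters' processing notes. Which aligner, counting program and strand setting were used is not given in the sources used here.

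Genes were kept by filterByExpr (minimum count 10, minimum total 15), which left 13205 genes with 99.95% of the counts. The genotypes were compared with TMM factors and edgeR's two-sided quasi-likelihood test (edgeR 4.0.16 in R 4.3.3). P-values were Benjamini-Hochberg adjusted over all tested genes at a threshold of 0.05. A positive log2 fold change means higher in NcoR1ΔHep. The scripts were tested on simulated data. DESeq2 1.42.0 and limma 3.58.1 on log2 FPKM with a pseudocount were alternatives, with other scalings, other filters, a replicate term and each library left out in turn. Library profiles and within-genotype SDs used log2(CPM + 0.05). That pseudocount replaced 0.5 after the data had been seen.

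The 10 genes, the gene lists and the tests were chosen with earlier results of these data known. Besides the 10 genes, the text names Ncor1, the 3 tested genes with the smallest p in each list, all tested paralogues, Arntl and Dbp, the 5 genes closest in profile to Cdkn1a and to Rnf144b, and defining cell markers. Ei24 and E230016M11Rik were named after their values were seen. Promoter windows of RefSeq (GRCm38.p6) were searched for the p53 element with spacers of 0 to 13 bases and at least 1 exact unit per pair. Exon overlaps came from GENCODE.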

Additional observations from a re-analysis of the deposited data

How the results depend on the processing

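The number of genes past the threshold was 0 in edgeR's quasi-likelihood test, with 443 genes at an unadjusted p under 0.05, and stayed 0 with each library left out. It was 5 with DESeq2, which also called 1 clock gene, Arntl. Of 53 named genes, 37 kept the sign of their log2 fold change wherever fitted among the 14 settings, and 16 did not. Cdkn1a, Rnf144b, Gadd45a, Trp53, Mdm2 and Sesn2 were among the 37. Filters left some genes out of some settings, Phlda3 among them.

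Ccng1 (0.03) turned to -0.019 with total counts in place of TMM, to -0.015 with limma at either pseudocount and to -0.014 with the replicate block. Phlda3 (0.06) turned to -0.0037 with limma on log2(FPKM + 1), to -0.11 on log2(FPKM + 0.1) and to -0.13 with the replicate block. Cdkn1c turned to -0.0054 with DESeq2, to -0.031 and -0.11 with limma and to -0.11 with the replicate block, and Zmat1 to -0.0060 and -0.035 with limma. The causes were not tested. Cdkn1a kept its sign but was -1.35 with limma on log2(FPKM + 1), against -2.08.

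With 1 library left out, log2 fold changes ran from -0.47 to 0.39 for Ccng1, -0.56 to 0.42 for Phlda3, -0.34 to 0.15 for Zmat3, -0.77 to 0.23 for Trp53inp1, -0.37 to 0.71 for Mdm4, -0.52 to 0.23 for Cdkn1c, -0.19 to 1.02 for Phlda1, -0.48 to 0.42 for Zmat1, -0.0036 to 0.14 for Zmat2, -0.32 to 0.012 for Trp53inp2, -0.17 to 1.87 for Gadd45g and -0.098 to 0.093 for Sesn1. For cell markers they ran from -0.21 to 0.026 for Alb, -0.26 to 0.72 for Lrat, -0.48 to 1.08 for Krt19 and -0.041 to 0.19 for Ptprc. List medians ran from -0.060 to 0.064 for other p53 targets, -0.025 to 0.15 for p53 regulators, -0.35 to 0.058 for DNA damage genes, -0.078 to 0.17 for paralogues and -0.14 to 0.22 for ATF4 targets.

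Deviations of same-numbered libraries from their group means correlated at 0.02, -0.33 and -0.47. The highest correlation, 0.56, was that of NcoR1ΔHep 3 with flox 2. Deviations sum to 0 within a group, so these values constrain each other and cannot exclude a shared litter, day or batch. The replicate block called 0 genes. With 3 libraries a group, 1 of them with other sex-linked transcripts, the intervals of single genes stay wide, and genes under about 50 counts, such as Phlda3 and Bub1, carry added counting error.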
